A study of Mus musculus with 8 samples.

Results

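Interleukins, their receptors and the ligands of the tumour necrosis factor (TNF) superfamily were followed through 3 comparisons of JunB cKO with wild type skin. Members were chosen by symbol: every entry beginning with Il or Tnfsf and a number, plus Tnf, Tslp, Lta and Ltb. This gave 102 symbols in all, of which 91 occurred in each of the 3 expression tables. There were 98 members among 26428 symbols for unperturbed skin, 96 among 46645 after hair plucking and 95 among 46625 in wounds. Values are FPKM, that is a fragment count scaled to transcript length and library size, which allows levels of different genes to be compared within a library.

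All mice were C57BL/6. JunB cKO mice carried floxed Junb alleles and a Cre recombinase under the K14 promoter, which is active in basal epidermal cells, so fibroblasts, leukocytes and vessels kept an intact gene. Wild type mice (JunB +/+) served as controls. The unperturbed pair is labelled as keratinocytes of untreated mice, 1 library per genotype. The plucked pair is 1 library per genotype, labelled as a skin biopsy 4 days after hair removal. For the wound comparison the labels list 2 libraries per genotype from skin 30 days after wounding. It has 1 value per genotype, and which of the libraries enter that value is not stated. RNA of several samples was pooled for each group. With 1 value per genotype there was no replicate error in any comparison, no test was possible, and all differences below compare libraries. A member was counted as higher or lower when log2((cKO + 1)/(wild type + 1)) of its FPKM was at least 1 or at most -1, the 2-fold limit.

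Interleukins and TNF ligands are secreted or membrane-bound messengers between epidermal cells and leukocytes. In epidermis, keratinocytes themselves make IL-1α, the IL-36 cytokines, IL-18, IL-33 and TSLP, and the matching receptor chains sit on keratinocytes, leukocytes or both. IL-1 and IL-36 signals are held down by receptor antagonists and by decoy receptors that bind the ligand without signalling. JunB is a subunit of AP-1, a transcription factor that binds the sequence TGANTCA, which occurs near many cytokine genes.

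The AP-1 sequence was therefore looked for in the RefSeq promoters of the members (GRCm38.p6, 250 bases before to 50 after the start site). Promoters were found for 78 of the 102 member symbols. TGANTCA, which reads the same on both strands, occurred in 16 of the 78 (20.5%), against 8.97% of 27025 symbols with a promoter. Of the 19 members with a promoter that passed the 2-fold limit in at least 1 comparison, 4 held it, and of the other 59, 12 did. A match is a description of the sequence and does not show binding. The 4 stretches are shown because they belong to genes whose values are followed below. Each is printed 5′ to 3′ on the strand of its gene, ends at the latest at the base before the start site, and has the match in capitals.
Il1a: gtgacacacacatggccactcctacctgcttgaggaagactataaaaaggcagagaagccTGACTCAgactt
Il1f8: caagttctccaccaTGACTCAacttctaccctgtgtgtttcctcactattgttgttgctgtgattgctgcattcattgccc
Il16: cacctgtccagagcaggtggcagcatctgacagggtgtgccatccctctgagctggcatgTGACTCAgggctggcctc
Il13ra2: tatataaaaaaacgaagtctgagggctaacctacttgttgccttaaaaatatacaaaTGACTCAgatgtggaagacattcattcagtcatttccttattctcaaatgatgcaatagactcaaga
The Il1a stretch lies at chr2:129309973-129310044 on the minus strand, and its match begins 12 bases before the start site. The Il1f8 stretch lies at chr2:24152922-24153002 on the plus strand, the Il16 stretch at chr7:83735540-83735617 on the minus strand and the Il13ra2 stretch at chrX:147429319-147429442 on the minus strand. In the GENCODE M21 annotation none of them overlaps an exon. The Il16 stretch is inside an intron of longer Il16 transcripts, and the others are intergenic. All 4 held the form TGACTCA.

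Junb itself was lower in every JunB cKO value, at 11.7% of wild type in the unperturbed pair, 28.8% after hair plucking and 46.2% in wounds. Keratinocyte markers were high in every library (Krt5, 357 to 2690 FPKM). In the unperturbed pair, markers of fibroblasts summed to 13.7 FPKM in wild type against 12.5 in JunB cKO, whereas Col1a1 alone had at least 527 FPKM in every plucked and wound value. Depth was estimated from short sensory receptor genes, where 1 FPKM over 1 kb stood for 13.3 reads in unperturbed wild type but 3.92 in unperturbed JunB cKO, 10.1 in plucked JunB cKO, and 34.1 and 31.7 in wild type and JunB cKO wounds. In this order the estimates rest on 25, 235, 3, 21 and 2 loci, so those of plucked JunB cKO and of JunB cKO wounds are rough. Plucked wild type gave no estimate. A value of 0 can be a failed estimate, since the housekeeping gene Gapdh is listed at 0 in both unperturbed libraries. Members at 0 in 1 genotype are therefore reported as listed at 0, with no fold.

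Members past the 2-fold limit differed between the 3 conditions. In the unperturbed pair, 11 of 98 members (11.2%) were higher in JunB cKO, against 9.32% of all symbols, and 0 were lower, against 0.855%. After hair plucking, 8 of 96 (8.33%) were higher against 6.48% of all symbols, and 12 (12.5%) were lower against 5.66%. In wounds, 5 of 95 (5.26%) were higher against 2.16%, and 2 (2.11%) were lower against 1.98%. Among symbols with a mean FPKM of both genotypes of at least 1, 5 of 51 members (9.80%) were higher in the unperturbed pair (background 5.57%) and 0 lower (1.54%). In the same class after plucking, 6 of 49 (12.2%) were higher (16.2%) and 12 (24.5%) lower (14.6%), and in wounds 5 of 55 (9.09%) were higher (4.97%) and 2 (3.64%) lower (4.38%). In percentage points, the members stood furthest above the background among those lower after plucking, while several other shares were near it.

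**Figure D1:**
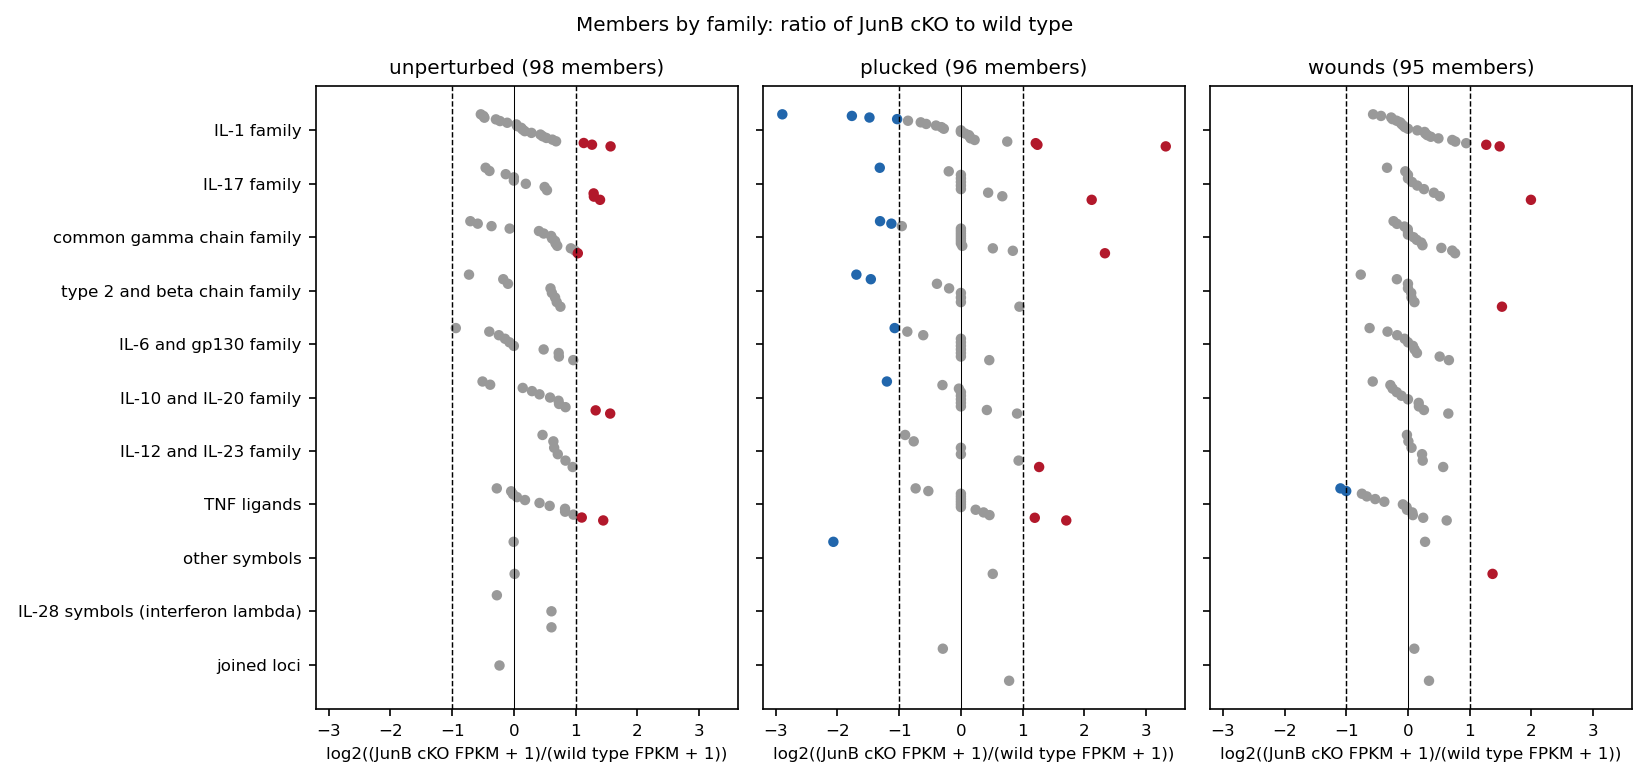
Each point is 1 member, placed by its family and by log2((JunB cKO FPKM + 1)/(wild type FPKM + 1)) in each of the 3 comparisons, with red points at least 2-fold higher, blue points at least 2-fold lower and dashed lines at the limit. The unperturbed panel has 11 red and 0 blue points, the plucked panel 8 and 12, and the wound panel 5 and 2.

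Members were also counted by role. After plucking, of 49 ligands, 6 were higher (Il1f10, Il15, Il23a, Il1f6, Il1a and Tnf) and 4 lower (Il1b, Tslp, Il16 and Il1f8). Of 37 receptor chains, 1 was higher (Il17rc) and 6 were lower (Il18r1, Il4ra, Il17rd, Il10ra, Il2rb and Il6st). In the unperturbed pair, 9 of 52 ligands and 2 of 39 receptor chains were higher. In wounds, 3 of 49 ligands were higher and 1 lower, and 1 of 36 receptor chains was higher. Over all symbols, 9.32% were higher and 0.855% lower in the unperturbed pair, 6.48% and 5.66% after plucking, and 2.16% and 1.98% in wounds. The counts by role are small and were not tested against these shares or against each other. The median log2 ratio of all members was 0.47 in the unperturbed pair (0.13 over all symbols), 0.00 after plucking (0.00) and 0.06 in wounds (0.00).

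The most abundant members of the unperturbed pair, mostly receptor chains and antagonists, stayed within the limit. Il20rb, a receptor chain for IL-19, IL-20 and IL-24, was the highest member there, with 117 FPKM in wild type against 89.2 in JunB cKO. Il13ra1, which pairs with IL-4Rα, followed with 85.4 and 75.7, and Il17rc, the partner of IL-17RA in the receptor for IL-17A and IL-17F, with 77.4 and 58.6. Il6ra had 58.2 and 43.9 FPKM, Il34, a ligand of the CSF1 receptor needed by Langerhans cells, 56.6 and 56.5, and Il1rn, the IL-1 receptor antagonist, 52.8 and 45.1. Of the 26 members with at least 10 FPKM in either genotype, 0 passed the limit. Il31ra, among these, fell short of it only through the pseudocount of 1 (-0.94). Its 12.6 FPKM in wild type was 2.07 times the 6.11 in JunB cKO. After plucking and in wounds the highest member was Il6st, the shared gp130 signalling chain. Of the 30 and 22 members with at least 10 FPKM in either genotype there, 9 and 3 passed the limit. With at least 10 FPKM in both genotypes, 0 of 21 members passed it in the unperturbed pair, beside 1.62% of all such symbols. After plucking it was 3 of 20 members beside 12.1%, and in wounds 1 of 18 beside 3.16%. Few abundant symbols of any kind thus passed it in the unperturbed pair, and the member counts were not tested against these shares.

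In the unperturbed pair, the 11 higher members were all low, between 1.28 and 5.91 FPKM in JunB cKO and at most 1.87 in wild type. Il1a, the constitutive IL-1 agonist of keratinocytes, had 1.87 FPKM in wild type against 5.91 in JunB cKO, a log2 ratio of 1.27. It was the highest of the 11 in JunB cKO and stood apart from the other 10. Il1rl1, the IL-33 receptor, was 0.0815 and 2.21 FPKM, Il10 0.268 and 2.18, Il17d 0.290 and 2.16, and Lta 0.0500 and 1.87. Il1f6 was 0.260 and 1.76, Il25 0.0685 and 1.63, Ltb 0.198 and 1.57, and Il2ra 0.112 and 1.28, whereas Il19 and Il17b were listed at 0 in wild type and had 1.95 and 1.63 in JunB cKO. Low values in the JunB cKO library were also higher for genes typical of sensory cells. Of 1480 odorant, vomeronasal and bitter taste receptor genes, 4.93% were above 0 in wild type and 86.2% in JunB cKO, where their median was 0.543 FPKM and their 95th percentile 1.64. By the same 2-fold limit, 23.9% of these genes were higher in JunB cKO, more than the 11.2% of the members. Of the 11 higher members, 7 lay above that percentile, with Il1a furthest above it. After the median of these genes was subtracted, 7 members were higher and 2 lower, and Il1f6, Il25, Ltb and Il2ra were no longer past the limit. Centring on the median ratio of expressed symbols, which was -0.17 on the log2 scale, gave 20 higher and 0 lower.

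**Figure D2:**
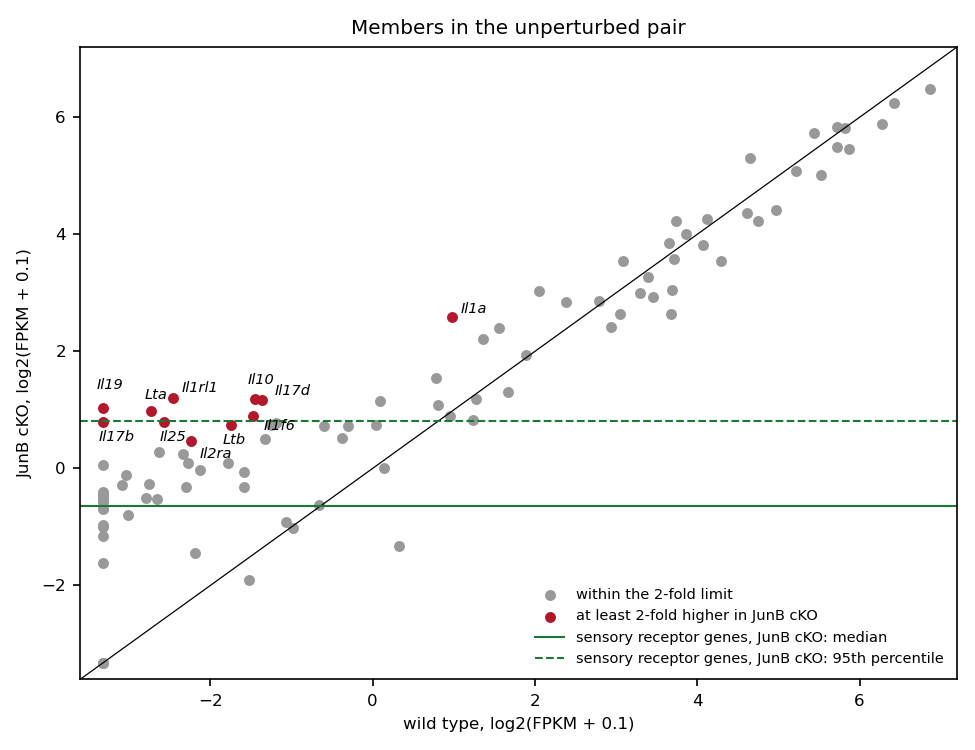
Each point is a member in the unperturbed pair, with log2(FPKM + 0.1) in wild type on the horizontal and in JunB cKO on the vertical axis, red where at least 2-fold higher, a black line of equality, and green lines at the median and 95th percentile of sensory receptor genes in JunB cKO. Abundant members follow the line of equality, Il1a lies above it, and the other red points gather around the dashed green line.

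The IL-1 family held the member that was past the limit in all 3 comparisons. Il1f6, which encodes IL-36α (chr2:24215417-24225701), had 0.260 FPKM in wild type against 1.76 in JunB cKO in the unperturbed pair, 10.9 and 27.0 after plucking, and 1.02 and 3.87 in wounds. It was higher in JunB cKO each time, with log2 ratios of 1.13, 1.24 and 1.27, although the first lies near the level of the sensory receptor genes described above. The other agonists of the IL-36 receptor did not share this. Il1f8 (IL-36β) had 3.61 and 3.74 FPKM in the unperturbed pair, 40.0 and 19.0 after plucking and 4.96 and 7.39 in wounds, and was past the limit only after plucking, where it was lower. Il1f9 (IL-36γ) had 12.5 and 14.3, 46.5 and 38.2, and 6.40 and 11.6, within the limit in each. The IL-36 receptor chain Il1rl2 and the IL-36 receptor antagonist Il1f5 were abundant and close between genotypes. Il1rl2 had 45.9 and 32.3, 88.0 and 98.3, and 57.8 and 52.9 FPKM in the same order, and Il1f5 43.4 and 53.1, 83.0 and 90.9, and 22.0 and 26.7.

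Il1a and Il1b, which act on the same receptor, stood on opposite sides after plucking. Il1a had 6.06 FPKM in plucked wild type and 15.4 in plucked JunB cKO (log2 ratio 1.21), and 3.97 and 4.52 in wounds. It was thus higher in JunB cKO in the unperturbed and plucked pairs and level in wounds. Il1b, which is made chiefly by activated myeloid cells, had 2.83 and 5.16 FPKM in the unperturbed pair, 6.43 in plucked wild type while listed at 0 in plucked JunB cKO, and 4.25 and 13.7 in wounds (log2 ratio 1.49). The transcript Il1bos lies opposite Il1b at the same locus, had 2.40 FPKM in plucked wild type, and was also listed at 0 in plucked JunB cKO. Reads of the 2 cannot be told apart unless counting used the strand, which is not stated. Markers of some other cell types were lower in plucked JunB cKO as well, while those of others were mixed or mostly higher. All 6 macrophage markers (Cd68, Csf1r, Cd163, Mrc1, Lyz2 and Adgre1) were past the limit and lower, summing to 240.0 FPKM in wild type against 77.2 in JunB cKO, and in wounds they summed to 436 and 428 with 0 past it. Of 6 fibroblast markers, 6 were lower after plucking and 3 past the limit, with 5109 and 1856 FPKM in sum, and all 4 skeletal muscle markers were past it and lower, with 196.3 and 25.0. Of 9 T cell markers, 2 were higher and 4 lower, 1 of them past the limit on each side, and 3 were listed at 0 in both genotypes. Cd3g had 39.6 and 20.6 FPKM, within the limit, and Trbc1 had 10.2 and 21.9, past it and higher. Cd8a had 2.38 FPKM in plucked wild type while listed at 0 in plucked JunB cKO, past it and lower. Of 5 mast cell markers, 2 were higher and 2 lower, with 46.2 and 61.4 FPKM in sum. Langerhans and dendritic cell markers were also 2 higher and 2 lower of 5, with 12.5 and 19.1 in sum. Of 5 endothelial markers, 2 were higher and 3 lower, with 72.5 and 52.9 in sum. In such bulk samples, fewer cells of a type and less RNA per cell cannot be told apart. The part of these cell types in the values of Il1b and of the receptor chains that were lower after plucking (Il18r1, Il4ra, Il17rd, Il10ra, Il2rb and Il6st) was not tested.

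Of the remaining IL-1 family ligands, Il1f10 (IL-38) was listed at 0 in plucked wild type and had 8.99 FPKM in plucked JunB cKO, beside 6.84 and 7.14 in the unperturbed pair and 14.0 and 10.1 in wounds. Only the plucked wild type value was listed at 0. Il18 had 13.2 and 18.7, 156 and 125, and 29.9 and 24.9 FPKM, within the limit throughout. Il33, an alarmin of barrier cells, had 31.2 and 21.2, 26.1 and 16.3, and 20.7 and 40.8, so that it was lower in JunB cKO in the first pairs and higher in wounds, there just short of the limit (0.94). Among receptors, Il18r1 had 10.9 and 7.54, 10.4 and 3.09, and 5.62 and 4.48 FPKM, and was past the limit after plucking (-1.48). Il1r1 and Il1rap, which together form the IL-1 receptor, differed by at most 0.22 on the log2 scale in all 3 comparisons. Il1rl1 had 1.42 and 0.336 FPKM after plucking and 4.95 and 6.24 in wounds, and Il18rap 0.103 and 0.702, 0.644 and 0.723, and 2.12 and 4.14. Among the brakes of the family, Il1r2, Il1rn and Il1f5 were above Il18bp in every library. The decoy receptor Il1r2 had 52.6 and 57.2, 52.8 and 39.7, and 36.8 and 24.6 FPKM, Il1rn 81.9 and 55.1 after plucking and 37.5 and 34.7 in wounds, and the IL-18 binding protein Il18bp 2.26 and 1.67, 5.92 and 10.6, and 5.12 and 6.61. Over the 3 antagonists and the decoy receptor, 0 passed the limit in any comparison. The brain receptors Il1rapl1 and Il1rapl2 stayed at or under 0.474 FPKM.

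**Figure D3:**
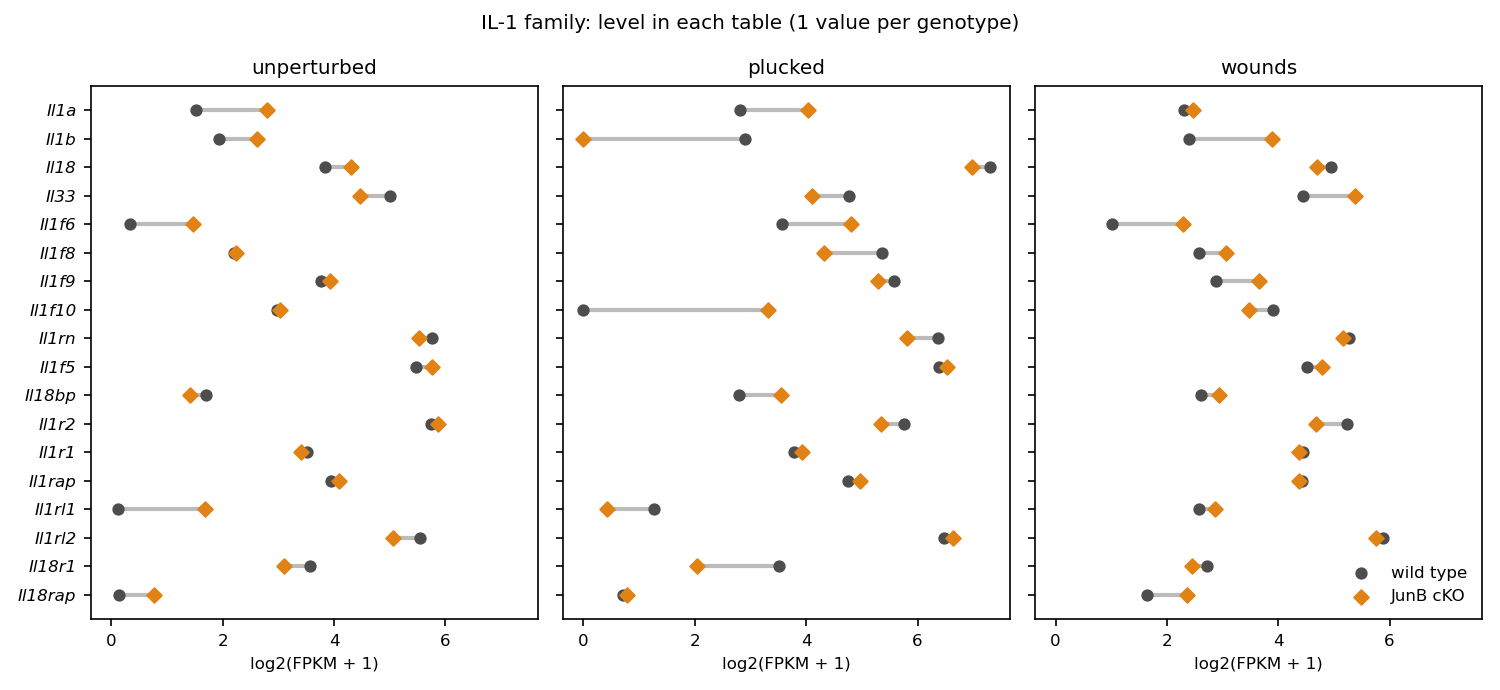
Points give log2(FPKM + 1) of 18 IL-1 family members in wild type (grey circles) and JunB cKO (orange diamonds) in the 3 tables, 1 value per genotype, joined by a grey bar. Il1f6 is further right in JunB cKO in each panel, Il1b changes sides between the plucked and wound panels, and the antagonists Il1rn and Il1f5 stay close.

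In the IL-17 family, 1 receptor chain was past the limit in both injured conditions. Il17rc (chr6:113471455-113483163) had 77.4 FPKM in wild type against 58.6 in JunB cKO in the unperturbed pair, 8.86 and 41.8 after plucking, and 12.2 and 51.4 in wounds. Both injured conditions therefore showed a higher value in JunB cKO, 4.72 and 4.22 times that of wild type, while the unperturbed keratinocytes did not. Log2 ratios were -0.40, 2.12 and 1.99. Its partner Il17ra, the common chain of the family, was level, with 7.53 and 5.22, 7.80 and 6.67, and 6.16 and 5.95 FPKM. Il17re, the receptor for IL-17C, had 13.0 and 11.8, 7.37 and 10.4, and 5.37 and 4.03, and Il17rb, a receptor for IL-25, 1.62 and 2.80, 2.24 and 4.15, and 2.04 and 3.35. Il17rd had 1.64 and 2.03 FPKM in the unperturbed pair, 3.44 and 0.784 after plucking and 2.70 and 2.88 in wounds, and was past the limit after plucking (-1.31). The ligands were scarce. After plucking, Il17a, Il17b, Il17d, Il17f and Il25 were listed at 0 in both genotypes. In wounds, Il17a was listed at 0 in wild type and had 0.338 FPKM in JunB cKO, Il17f had 0.0472 and 0.162, and Il17d 1.15 and 1.57. In unperturbed JunB cKO, Il17a had 0.413 FPKM, below the median of the sensory receptor genes, and Il17c and Il17f were listed at 0 in both genotypes.

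For the type 2 cytokines, a shared receptor chain and a decoy receptor were lower after plucking and stood on the other side in wounds. Il4ra, the shared chain for IL-4 and IL-13, had 12.8 FPKM in wild type against 8.20 in JunB cKO in the unperturbed pair, 24.6 and 9.32 after plucking (-1.31), and 27.8 and 46.4 in wounds (0.72). It was past the limit only after plucking. Il13ra2, the decoy receptor for IL-13, had 1.15 and 0.300, 8.31 and 2.38, and 1.01 and 4.78 FPKM, with log2 ratios of -0.73, -1.46 and 1.52. It was lower in JunB cKO after plucking and higher in wounds, past the limit both times. Il13ra1 had 91.4 and 80.0 after plucking and 47.6 and 49.4 in wounds, and stayed within 0.19 of equality on the log2 scale. Tslp, a keratinocyte cytokine that drives type 2 responses, had 2.47 and 4.51 FPKM in the unperturbed pair, 2.24 in plucked wild type while listed at 0 in plucked JunB cKO, and 1.39 and 0.406 in wounds. Il4, Il5 and Il13 did not exceed 0.611 FPKM in any library. Mast cell markers in wounds were higher in JunB cKO in 5 of 5, with 107.8 and 170.3 FPKM in sum and 0 past the limit, and their part in these values was not tested.

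Among genes of the common gamma chain family, Il15 and Il2rb differed after plucking. Il15, which sustains natural killer and intraepithelial T cells, had 8.20 FPKM in wild type against 6.16 in JunB cKO in the unperturbed pair, 3.11 and 19.7 after plucking (2.33), and 8.17 and 8.77 in wounds. Only the plucked pair separated. Il15ra, which presents IL-15, had 19.4 and 11.5, 66.9 and 33.9, and 30.9 and 30.9, lower in plucked JunB cKO but just short of the limit (-0.96). Il2rb, a signalling chain for IL-2 and IL-15, had 2.32 and 2.17, 1.98 and 0.367, and 1.29 and 1.02, past the limit after plucking (-1.13). Il7 was higher in JunB cKO in all 3 comparisons without passing it, with 0.962 and 2.12, 1.89 and 4.17, and 2.86 and 4.61 FPKM. Il2, Il9 and Il21 were at most 0.629 FPKM. Il2rg was within the limit in the unperturbed pair, with 5.11 and 7.11 FPKM, and in the plucked table a locus of its own was listed at 0 in both genotypes beside a locus joining Il2rg to neighbouring genes. In wounds it occurred only in that joined locus, which was not read.

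In the IL-6 family, the members with the highest levels were receptor chains. Il6st had 37.2 and 33.6 FPKM in the unperturbed pair, 274 and 130 after plucking (-1.07) and 367 and 291 in wounds (-0.33). Its value was lower in JunB cKO each time, past the limit after plucking. Il6ra, above Il6st in the unperturbed pair at 58.2 and 43.9, had 15.6 and 21.8 after plucking and 12.5 and 13.2 in wounds. Il11 had 0.339 and 1.61 FPKM in the unperturbed pair, was listed at 0 in both plucked libraries and had at most 0.122 in wounds. Il6 itself had 1.0 and 0.905 FPKM in the unperturbed pair, was listed at 0 in both plucked libraries and had 0.0753 and 0.0353 in wounds. Il31ra, a chain of the receptor for the itch cytokine IL-31, had 12.6 and 6.11, 8.07 and 3.97, and 2.23 and 3.61 FPKM, lower in the first pairs (-0.94 and -0.87) and higher in wounds (0.51). Il11ra1 had 16.8 and 14.0, 40.9 and 26.4, and 62.1 and 68.7. The near-identical copy Il11ra2 was listed at 0 everywhere, and its reads may not be assignable to 1 copy.

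Epidermal receptors for IL-20 and IL-22 were present in every library, and their ligands were low or listed at 0. Il20ra had 26.9 and 18.6, 18.3 and 14.7, and 5.62 and 3.46 FPKM, and Il22ra1 17.3 and 19.2, 14.9 and 14.5, and 5.51 and 4.48. Il20rb had 39.8 and 53.6 after plucking and 18.2 and 16.8 in wounds. Il22ra2, a soluble decoy for IL-22, had 8.37 and 11.5, 7.95 and 15.8, and 1.37 and 1.09. None of these passed the limit. Il10, Il19, Il20, Il22 and Il24 were all listed at 0 in both plucked libraries, and at most 0.573 FPKM in wounds. Il24 had 0.129 and 0.877 FPKM in the unperturbed pair. Il10ra, a leukocyte receptor, had 0.234 and 0.853, 2.39 and 0.478, and 4.80 and 3.76, and was past the limit after plucking (-1.20), beside the macrophage markers given above. Il10rb, read alone only in the unperturbed pair, had 4.05 and 8.03. In the IL-12 and IL-23 family, Il12rb2 was higher in JunB cKO throughout, with 24.9 and 39.4, 4.08 and 8.71, and 1.08 and 1.46 FPKM, without passing the limit. Il23a, the IL-23 subunit that sustains IL-17-producing cells, had 0.562 and 1.56, was listed at 0 in plucked wild type against 1.41 in plucked JunB cKO, and in wounds was listed at 0 in wild type with 0.171 in JunB cKO.

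TNF ligands were low in all libraries. Tnf had 0.709 FPKM in wild type against 1.56 in JunB cKO in the unperturbed pair, was listed at 0 in plucked wild type against 1.29 in plucked JunB cKO, and had 2.12 and 0.558 in wounds (-1.0). It was on the higher side after plucking and on the lower side in wounds, where it just reached the limit. In wounds, 8 of the 12 ligands were lower in JunB cKO and 4 higher, with 1 past the limit. Tnfsf13b (BAFF), a survival factor of B cells, had 5.12 and 2.65 FPKM there, and Tnfsf18 1.59 and 0.632. Tnfsf10 (TRAIL) had 0.299 and 1.31, 0.665 and 1.30, and 2.14 and 2.09. Lta and Ltb, the lymphotoxins, were listed at 0 in both plucked libraries and had 0.310 and 0.554, and 0.983 and 1.09, in wounds. Tnfsf12 and Tnfsf13 were read as 1 joined locus with 7.82 and 6.20 FPKM after plucking and 9.87 and 12.8 in wounds. Tnfsf13os, a transcript overlapping that locus, was listed at 0 in plucked wild type with 2.27 in plucked JunB cKO, and had 5.67 and 2.12 in wounds (-1.09).

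Il16 and Il34 stand outside these families. Il16, a chemoattractant for CD4+ cells, had 0.531 FPKM in wild type against 0.545 in JunB cKO in the unperturbed pair, 19.4 and 3.87 after plucking (-2.07), and 7.63 and 9.45 in wounds. Its level was past the limit only in plucked JunB cKO, where its locus also spans Stard5, at 68.4 and 57.4 FPKM. Apart from Il1b and Tnfsf13os, the other loci of members past the limit that were shared with a gene above 0 were those of plucked Tslp (Wdr36, 22.0 and 19.9), plucked Il4ra (Gm44876, 3.96 and listed at 0), Il1a (Gm14023, at most 1.70) and wound Il34 (Gm15894 and Gm15895, at most 1.41). Reads in shared stretches may be counted for either gene. Il34 had 56.6 and 56.5, 8.70 and 12.9, and 5.71 and 16.3 FPKM, and was higher in JunB cKO in wounds (1.37). The Langerhans cell marker Cd207 was level there, with 4.66 and 4.79. Il28a and Il28b, symbols of interferon lambda genes, were listed at 0 in unperturbed wild type with 0.526 FPKM each in JunB cKO, and their receptor Il28ra had 9.70 and 7.84. Il4i1, joined with Nup62, stayed within the limit, with 24.4 and 20.5, 17.3 and 30.4, and 23.7 and 25.5.

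**Figure D4:**
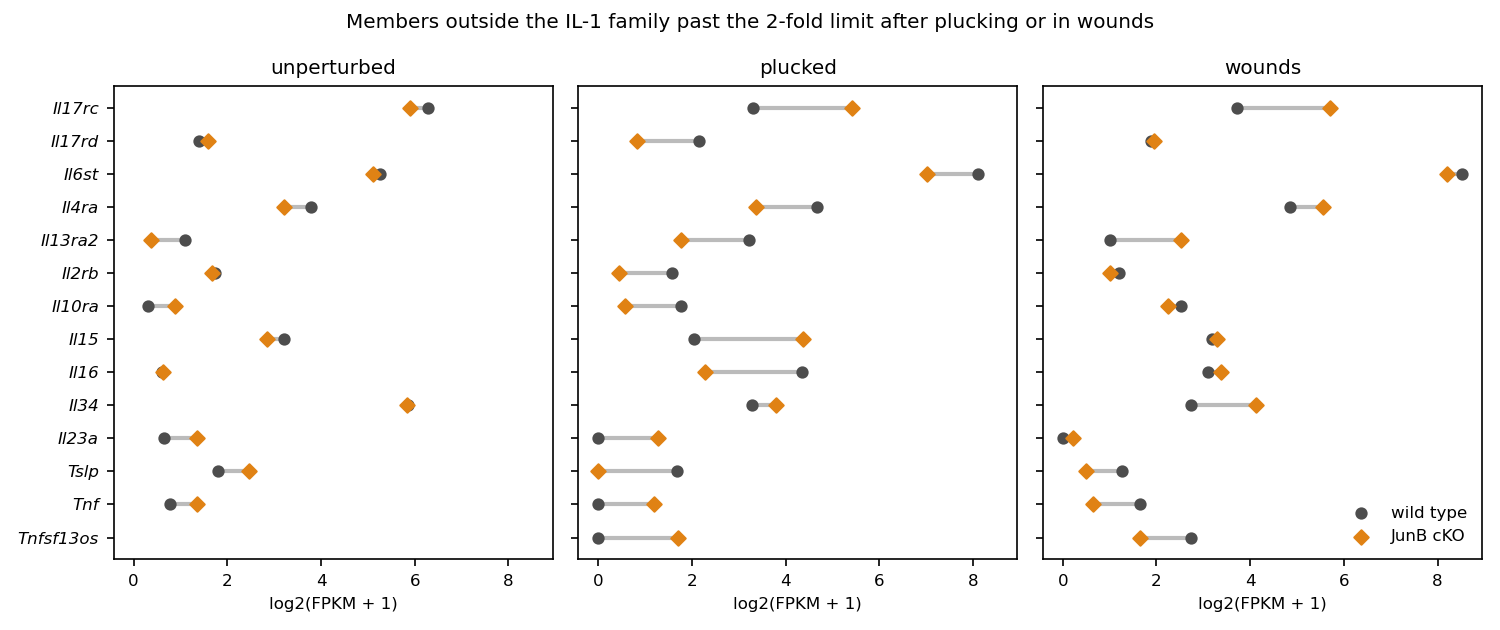
Points give log2(FPKM + 1) in wild type (grey circles) and JunB cKO (orange diamonds) for the 14 members outside the IL-1 family that passed the 2-fold limit after plucking or in wounds, with the unperturbed pair beside them. Il17rc is further right in JunB cKO in the plucked and wound panels, and Il13ra2 and Tnf change sides between these panels.

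Across conditions, 72 of the 102 members passed the limit in no comparison. Il1f6 was higher in all 3, Il1a in the unperturbed and plucked pairs, and Il17rc after plucking and in wounds. By contrast, 0 members were past the limit on the lower side in more than 1 comparison. That count depends on the pseudocount of 1. With 0.1, Il13ra2 was past the limit and lower in both the unperturbed and plucked pairs (-1.64 and -1.76). Of the 8 members higher after plucking, 2 (25.0%) were also higher in wounds, which is 40.0% of the 5 higher there. Over all symbols in both tables these shares were 5.36% and 16.1%, and 0 of the 12 members lower after plucking were lower in wounds, beside 3.98% of all symbols. The member counts behind these shares are small, and the shares were not tested. Il1b and Il13ra2 were lower after plucking and higher in wounds, and Tnf and Tnfsf13os the reverse. Neutrophil-associated S100a8 and S100a9 were higher in JunB cKO in both, with S100a8 listed at 0 in plucked wild type against 152 FPKM and at 36.7 against 139 in wounds. S100a9 had 2.56 and 250.4 FPKM after plucking and 10.9 and 77.5 in wounds. In the unperturbed pair both were past the limit and higher as well, S100a8 with 2.16 and 9.43 FPKM and S100a9 with 2.88 and 11.2. Both genes are also made by stressed keratinocytes. The neutrophil markers Ly6g, Mpo and Elane were listed at 0 in all plucked and wound values, and a value of 0 can be a failed estimate. Csf3r, the remaining marker of that list, had 3.55 and 0.551 after plucking and 1.80 and 5.60 in wounds, the same sides as Il1b. Whether neutrophils had a part in the Il1b values was not tested.

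**Figure D5:**
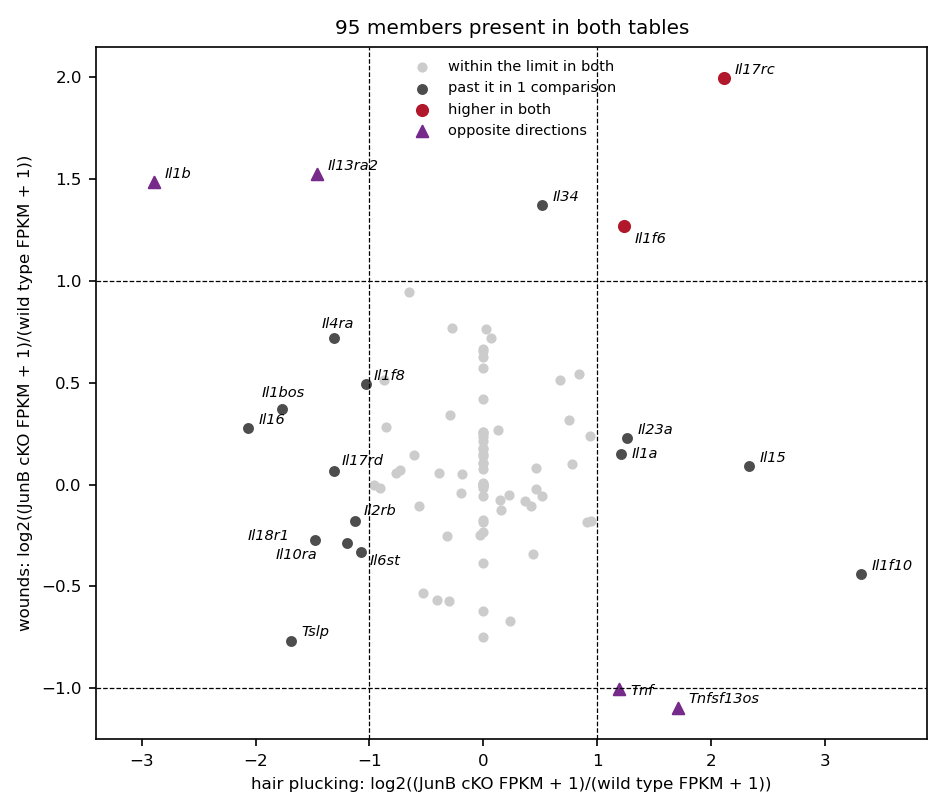
Each point is 1 of 95 members, with log2((JunB cKO FPKM + 1)/(wild type FPKM + 1)) after hair plucking on the horizontal and in wounds on the vertical axis, and dashed lines at the 2-fold limit. Il17rc and Il1f6 lie in the upper right, Il1b and Il13ra2 in the upper left, and Tnf and Tnfsf13os in the lower right.

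The genes that receive and relay these signals also passed the limit most often after plucking, where more of all symbols did so. Over all symbols with a mean of at least 1 FPKM, given above, 5.57% were higher and 1.54% lower in the unperturbed pair. The shares were 16.2% and 14.6% after plucking, and 4.97% and 4.38% in wounds. Several counts of the lists below are near or under these shares. The counts and medians of the lists were taken without that FPKM filter, so the 2 sides are not fully alike. Of 27 TNF receptors, 1 was higher and 1 lower in the unperturbed pair, 5 higher and 7 lower after plucking, and 1 higher and 1 lower in wounds. The higher receptor of the unperturbed pair, Tnfrsf17, was listed at 0 in wild type and had 1.31 FPKM in JunB cKO. Tnfrsf1a, the main TNF receptor of epithelia, had 101 and 89.6, 39.2 and 148, and 77.8 and 67.6 FPKM, and Ltbr, the lymphotoxin receptor, 26.5 and 23.9, 12.6 and 33.3, and 19.8 and 31.3. Both were past the limit and higher only after plucking. Among the 7 that were lower there, Tnfrsf13b had 16.1 and 0.198 FPKM, Tnfrsf18 40.6 and 15.7, and Tnfrsf12a 22.0 and 7.23. Of 37 genes of IL-1 and TNF signalling, 0 passed it in the unperturbed pair, 5 were higher and 3 lower after plucking, and 1 was higher and 0 lower in wounds. Sigirr, an inhibitory receptor of the IL-1 family, had 0.926 and 1.23, 3.47 and 12.5, and 0.938 and 4.15 FPKM, past the limit in both injured conditions. Tnfaip3 (A20), a brake on NF-κB, had 80.0 and 56.4, 9.43 and 31.7, and 9.84 and 19.0. The 3 that were lower after plucking were Traf3, with 27.7 and 10.7 FPKM there, Tnip1 with 31.5 and 14.0, and Nlrp3 with 1.12 and listed at 0. For JAK-STAT signalling, 0 of 29 passed in the unperturbed pair, 6 of 27 were higher and 1 lower after plucking, and 0 were higher and 1 lower in wounds. Socs3, a feedback inhibitor downstream of gp130, had 62.8 and 35.5, 2.93 and 35.4, and 3.99 and 4.95 FPKM, and was thus higher in JunB cKO after plucking, where Il6st was lower. The medians of the IL-1 and TNF signalling list were -0.27, 0.01 and 0.01 and of the JAK-STAT list -0.27, 0.18 and 0.20, beside -0.12, 0.02 and 0.01 over all symbols with a mean of at least 1 FPKM.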

How the data were processed

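RNA was depleted of rRNA and sequenced from 8 libraries. The authors aligned the reads to mm10 and calculated FPKM values per gene locus with Cufflinks and Cuffdiff. The deposited tables hold 1 FPKM value per genotype and locus. Whether both of the 2 wound libraries per genotype entered it is not stated. Each table was normalized on its own, so levels of different tables are only set side by side. Their columns of fold changes, test statistics, p-values, q-values and calls were not used. Columns were assigned by the genotype names inside the tables and the condition by the table names and labels. Coordinates are 1-based on GRCm38 and come from the unperturbed table.

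Of several loci of a symbol, the one with the highest sum of both FPKM values was kept, and loci joining several genes were kept under their joined name. Log2 ratios used a pseudocount of 1, and the limit was 2-fold. The planned limma fit of the wounds was not possible, because their libraries are not separated. Genes were named by rule: in each table members past the limit (at most 15 per direction) and the 10 highest members, and in all tables the IL-1 and IL-17 families and selected cytokines and receptors. Genes of the pathway and marker lists were named after their values were seen. Members and lists were chosen with earlier results of these data known. Alternatives were pseudocounts of 0.1 and 0.01, a mean FPKM of at least 1, a 1.5-fold limit, centring on the median ratio, FPKM summed over loci, and subtraction of the median of sensory receptor genes. Depth was estimated from sensory receptor loci of 880 to 1000 bp, with the lowest values above 0 taken to stand for 1 read. It gives the precision of counting only. Calculations were tested on simulated data with large changes, built from symbols with a mean of at least 10 FPKM. Lower values were not covered by that test. Software was pandas 2.3.3, numpy 2.4.6 and matplotlib 3.10.9 under Python 3.11.15.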

Additional observations from a re-analysis of the deposited data

Results flagged for a closer look

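The values of 4 members were at least 2-fold higher in JunB cKO in one injured condition and at least 2-fold lower in the other, and none of these differences could be tested with 1 value per genotype. For Il13ra2, which was above 0 in all 4 values, the log2 ratio was 2.98 higher in wounds than after plucking. The other 3 rest on a plucked value listed at 0, so the sizes of their differences are set by the pseudocount of 1 and are no fold changes. On that scale the difference was 4.38 for Il1b (wounds above plucking), and 2.2 for Tnf and 2.80 for Tnfsf13os (plucking above wounds). The plucked log2 ratios alone went from -2.89 to -9.33 for Il1b, from 1.20 to 7.03 for Tnf and from 1.71 to 7.83 for Tnfsf13os when the pseudocount was lowered to 0.01. Across the 46513 symbols in both tables, 301 were past the limit in opposite directions, beside 4 of the 95 members. Many of all symbols could not pass it, as 27156 were listed at 0 in both genotypes after plucking and 20390 in wounds.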

How the results depend on the processing

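No paired analysis was possible because the wound table gives 1 value per genotype, and for the same reason the fits without replicate 1 or 2 were not run. Counts are given as higher and lower members in JunB cKO. In the unperturbed pair they were 11 and 0, against 45 and 2 with a pseudocount of 0.1, 46 and 2 with 0.01, 42 and 4 with a 1.5-fold limit, 20 and 0 after centring, 5 and 0 at a mean FPKM of at least 1, and 7 and 2 after subtraction of the sensory receptor median. The 2 lower members with a pseudocount of 0.1 were Il13ra2 and Il31ra. The median log2 ratio of 0.47 became 0.80, 0.87, 0.64, 0.040 and 0.0096 with the 2 smaller pseudocounts, centring, the mean FPKM limit and subtraction, and 0.29 without symbols listed at 0 in either genotype, an alternative chosen after seeing the data. The shared median of expressed symbols was -0.17 in that pair. After plucking, 8 and 12 became 15 and 20 with a 1.5-fold limit, and without symbols listed at 0 the higher members were 4 (9 were lower). The median of 0.00 moved to -0.19 at a mean FPKM of at least 1 and to -0.11 without symbols at 0. In wounds, 5 and 2 became 14 and 9 with a pseudocount of 0.1, 18 and 10 with 0.01, and 13 and 6 with a 1.5-fold limit. Of the single members past the limit, all 20 after plucking and all 7 in wounds stayed past it on the same side under every alternative that gave them a value, as did 7 of 11 in the unperturbed pair. The exceptions were Il1f6, Il25, Ltb and Il2ra, which fell short of the limit under subtraction but remained higher in JunB cKO. Smaller pseudocounts, the 1.5-fold limit and the mean FPKM filter cannot bring a member back within the limit. After plucking and in wounds the sensory receptor median was 0, so subtraction changed nothing, and centring moved ratios by only 0.0045 and 0.013. That members stayed past the limit there was thus largely fixed in advance and is no measure of their reliability.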
